A study of Danio rerio with 4 samples.

Results

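The genes of oxidative phosphorylation were followed in RNA-sequencing data of whole zebrafish embryos at 72 hpf, comparing nexn-/- with nexn+/+ embryos. The members were the rows of the deposited tables whose gene symbol begins as those of the subunits of respiratory complexes I to IV and of the ATP synthase (nduf, sdha to sdhd, uqcr, cox4 to cox8 and atp5 in the nucleus, mt-nd, mt-cyb, mt-co and mt-atp in the mitochondrion), which gave 120 of 32057 genes. Of these, 88 were nuclear subunits of complexes I (38), II (5), III (8), IV (20) and V (17), 13 were the mRNAs of the mitochondrial genome, and 19 were nuclear genes that the same symbols take in without being counted here as subunits, namely 12 assembly factors, 4 genes of the ndufa4 family, the ATP synthase inhibitors atp5if1a and atp5if1b, and cox7a2l. Symbols of 5 members are written in capitals in the tables and were matched regardless of case, and the symbol COX5B stands on 2 rows.

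Each genotype had 2 libraries, each made from pooled RNA of 25 embryos. The nexn-/- embryos carry a CRISPR/Cas9-induced deletion within exon 2 of nexn, which encodes the Z-disk protein nexilin, and came from incrosses of nexn-/- adults. The nexn+/+ embryos came from incrosses of nexn+/+ adults, and the adults of both genotypes were offspring of a heterozygous pair that were kept in separate tanks, so genotype and parents cannot be told apart. Nothing states whether the replicate pools came from separate clutches, so the p-values measure only the spread between these pools. Because whole embryos were used, fewer cells of a type and less RNA per cell cannot be told apart.

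Oxidative phosphorylation couples the oxidation of NADH and succinate to the synthesis of ATP. Complex I (NADH dehydrogenase) and complex II (succinate dehydrogenase) pass electrons to ubiquinone, complex III passes them on to cytochrome c, and complex IV (cytochrome c oxidase) transfers them to oxygen. Complexes I, III and IV pump protons across the inner mitochondrial membrane, and the ATP synthase, complex V, uses the returning protons to make ATP. All complexes but complex II are built from subunits of both genomes, and muscle, heart and neurons are among the tissues that depend most on them.

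Total estimated counts were between 19413597 and 21956272 per library, and after TMM scaling the factors were between 0.88 and 1.07. Replicates differed by more than sampling noise in both genotypes (median absolute log2 difference per gene of 0.243 in nexn+/+ and 0.144 in nexn-/-). The transcript of nexn itself stood at 96.3 and 75.4 CPM in nexn+/+ against 40.2 and 51.0 CPM in nexn-/- embryos (log2(FC) -0.91, standard error 0.168, edgeR adjusted p = 0.00737). A gene count does not show the deletion. With library size alone in place of TMM, the median over all tested genes moved by 0.147 on the log2 scale, and with the upper quartile by 0.103, which matters for the direction of small changes below. Of all tested genes, 3392 were called higher and 2831 lower, with library size alone 4414 higher and 1878 lower, and with the upper quartile 4085 higher and 2212 lower. A log2(FC) above 0 stands for a higher level in nexn-/- embryos. Genes count as called where edgeR's quasi-likelihood test gave a p under 0.05, adjusted by Benjamini-Hochberg over 20312 tested genes, together with a log2(FC) beyond 0.5.

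The transcripts of oxidative phosphorylation were seldom called between the genotypes. Of the 119 members tested, 1 was called higher and 4 were called lower in nexn-/- embryos, which is 4.20% of them, beside 30.6% of all tested genes (16.7% higher and 13.9% lower). The single member not tested, ndufa4l2b, had 1 count over all libraries. The called members were the cytochrome c oxidase isoform cox7a1 (higher), the isoform cox4i2 (lower) and the small ATP synthase subunits atp5md, atp5f1e and atp5mea (lower). All 5 are nuclear subunits. Without the fold change limit, ndufa4 and cox6b1 were added to those lower, and 35.1% of all tested genes passed (17.8% higher and 17.3% lower). The groups did not overlap for 39 of 119 members (32.8%), with 11 above and 28 below in both nexn-/- libraries, beside 70.9% of all tested genes (36.4% above and 34.4% below). Among all tested genes averaging between 10 and 100 CPM, where 33 of the nuclear subunits lie, 34.1% were called, and between 100 and 1000 CPM, where 42 lie, 40.5% were called.

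**Figure D1:**
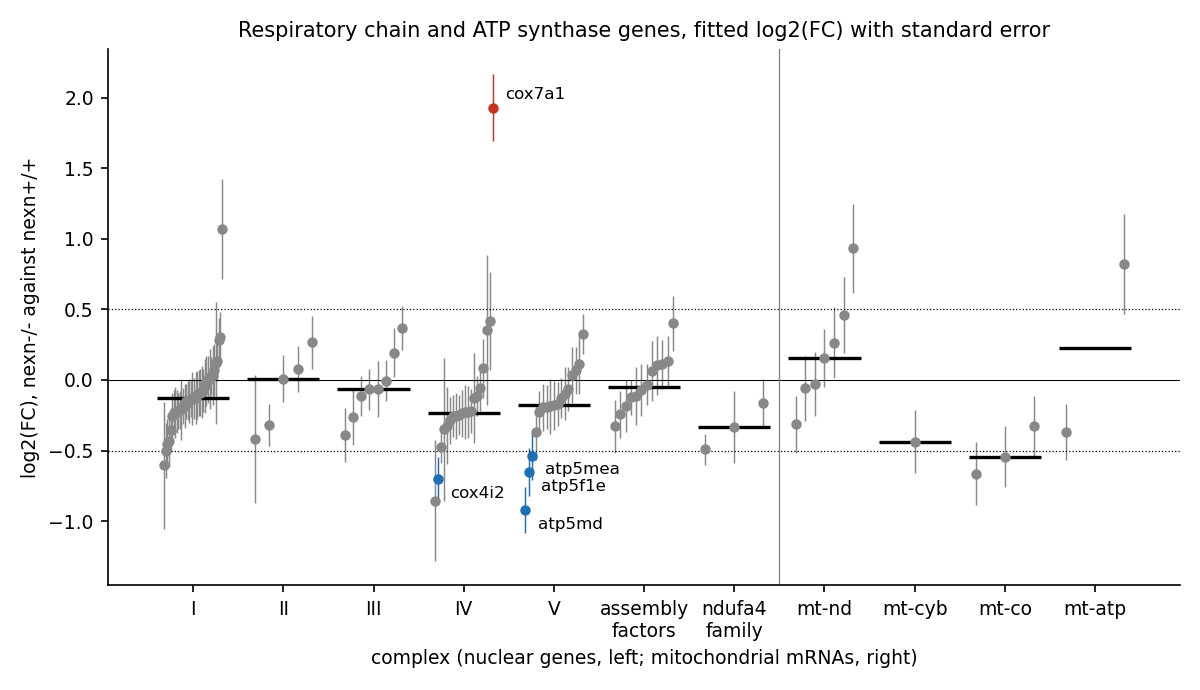
Fitted log2(FC) with its standard error for each tested subunit, assembly factor and member of the ndufa4 family (points, ordered by size within a group), with the median of each group as a black line and the fold change limit of 0.5 dotted. Red and blue points are called higher or lower. The medians of the nuclear complexes lie between -0.23 and 0.01, whereas the mitochondrial mRNAs spread from -0.67 to 0.93 with none called.

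The members also differed widely between the nexn+/+ replicates, and the part of this in the low share of calls was not tested. For 111 of 119 members (93.3%), nexn+/+ replicate 1 was above nexn+/+ replicate 2, which held for 50.0% of all tested genes, and the median log2 ratio of these replicates was 0.45 over the members and -0.0003 over all genes. For 45 members (37.8%), both nexn-/- libraries lay between the nexn+/+ libraries, beside 10.8% of all tested genes. The nexn-/- replicates differed less, with a median log2 ratio of -0.089. Centred on the mean of the 4 libraries, the median nuclear subunit stood at 0.27 and -0.14 in nexn+/+ against -0.13 and 0.01 in nexn-/-. The markers of fast skeletal muscle showed the same order of the nexn+/+ replicates. Their summed level was 85720 and 40685 CPM in nexn+/+ against 55108 and 58629 CPM in nexn-/- embryos, all 8 measured markers were higher in nexn+/+ replicate 1 than in replicate 2, and none was called between the genotypes. The summed markers of slow muscle, 1093 and 367 CPM in nexn+/+ against 1346 and 1425 CPM in nexn-/-, also differed between the nexn+/+ replicates. Unlike those of fast muscle, their sums were higher in both nexn-/- libraries. Of the 5 slow muscle markers 1 was called, tnni1b (higher, log2(FC) 0.87, edgeR adjusted p = 0.00819). The same order was also seen outside muscle, with gaps of unlike size. Replicate 1 was also the higher in nexn+/+ for all 5 heart, 4 liver and 5 neuron markers measured. It was the higher for 5 of 6 markers of skin ionocytes and 3 of 5 of red cells, and for none of cones and rods or proliferating cells. The summed liver markers stood at 105 and 53.8 CPM in nexn+/+. The neuron sums were nearly equal there, at 2405 and 2308 CPM, and the heart sums were low, at 6.18 and 3.88 CPM. The part of muscle RNA in the levels of the members was not tested.

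**Figure D2:**
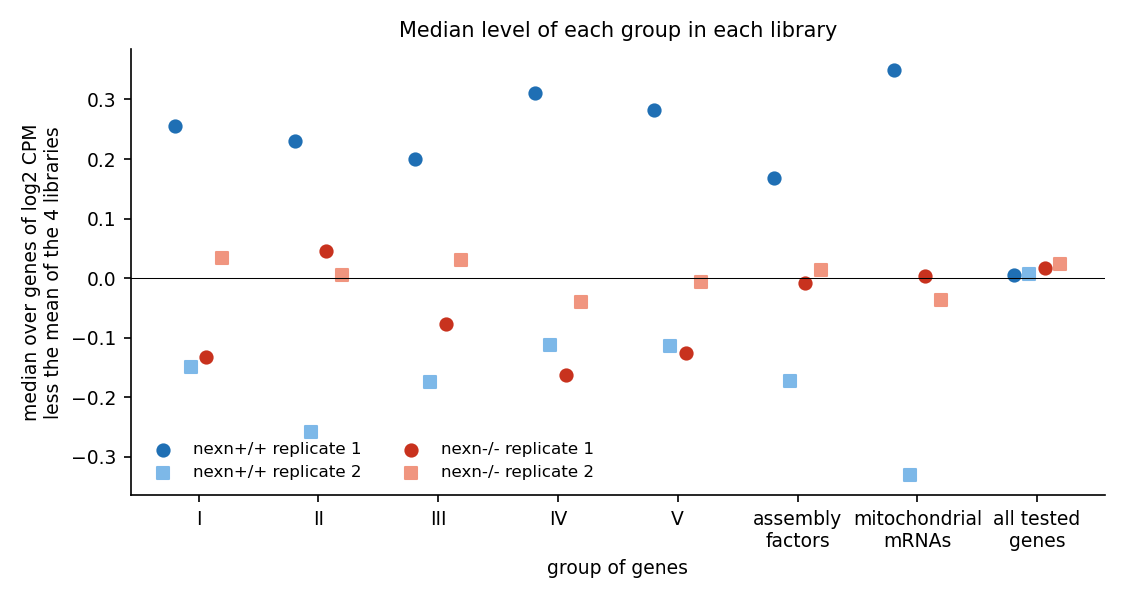
Median over the genes of each group of log2 CPM less the mean of the 4 libraries, for each library (circles, replicate 1, squares, replicate 2, blue, nexn+/+, red, nexn-/-). In each of the 7 groups of members plotted nexn+/+ replicate 1 is highest and nexn+/+ replicate 2 is lowest or next to the lowest, whereas over all tested genes the libraries lie together.

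Without nexn+/+ replicate 1, 6 nuclear subunits were called higher and 2 lower, and 4 mitochondrial mRNAs were called higher, beside 4928 higher and 3632 lower of all tested genes. Without nexn+/+ replicate 2, 1 nuclear subunit was called higher and 17 lower, and 6 mitochondrial mRNAs were called lower, beside 4216 higher and 3234 lower of all tested genes. Of the 5 called members, cox7a1, cox4i2 and atp5md were called without either nexn+/+ library, whereas without nexn+/+ replicate 1 atp5f1e (log2(FC) -0.40) and atp5mea (log2(FC) -0.27) were not. In these fits a single nexn+/+ library is assumed to vary like the nexn-/- pair. Without either nexn-/- library the spread comes from the nexn+/+ pair alone, and only 4 of all tested genes were called.

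Complex I takes electrons from NADH. None of its 38 nuclear subunits was called, 28 had a log2(FC) below 0 and 10 above, and the median was -0.13, beside 0.02 over all tested genes (for the complex 0.03 with library size alone and -0.03 with the upper quartile). The 8 genes of its core, which carries the flavin, the iron-sulfur clusters and the ubiquinone site, had a median of -0.0009, and the 30 accessory subunits, which surround and stabilise the core, had a median of -0.15. The core subunit ndufs1, the largest iron-sulfur subunit, had the highest log2(FC) among nuclear subunits of complex I averaging 10 CPM or more. It stood at 232 and 166 CPM in nexn+/+ against 236 and 256 CPM in nexn-/- embryos. Both nexn-/- libraries were above, nexn+/+ replicate 1 only narrowly below them (log2(FC) 0.31, standard error 0.173, edgeR adjusted p = 0.212). The lowest was the accessory subunit ndufa6, at 114 and 77.5 CPM in nexn+/+ against 62.0 and 73.3 CPM in nexn-/- (log2(FC) -0.50, edgeR adjusted p = 0.0861), again without overlap but with the nexn+/+ replicates far apart. The subunit ndufa2, the highest nuclear subunit of complex I per length at this level, lay between 389 and 422 TPM in all libraries. Of the 12 assembly factors, which help to build complexes I and II, none was called and the median log2(FC) was -0.05.

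Complex II oxidises succinate and is also an enzyme of the tricarboxylic acid cycle. None of its 5 rows was called. The catalytic flavoprotein gene sdha stood at 197 and 136 CPM in nexn+/+ against 187 and 214 CPM in nexn-/- (log2(FC) 0.27, edgeR adjusted p = 0.311). The iron-sulfur subunit gene sdhb stood at 173 and 133 CPM in nexn+/+ against 117 and 129 CPM in nexn-/- (log2(FC) -0.32, edgeR adjusted p = 0.146). The genotypes overlapped for sdha and not for sdhb, and neither difference passed the test. The membrane anchor gene sdhc, highest of the complex per length, had a log2(FC) of 0.08.

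Complex III had no called gene among its 8 nuclear members, with a median log2(FC) of -0.07 (0.10 with library size alone and 0.04 with the upper quartile). The nuclear gene cyc1, for cytochrome c1 of the same complex, lies outside the symbols used here. It had a log2(FC) of -0.006 and was not called. The highest and lowest log2(FC) among the 8 were those of uqcrc2b, which encodes a large core protein of the complex, and the small subunit gene uqcr10. The gene uqcrc2b stood at 202 and 154 CPM in nexn+/+ against 219 and 240 CPM in nexn-/- (log2(FC) 0.37, standard error 0.156, edgeR adjusted p = 0.112), and uqcr10 at 197 and 131 CPM against 121 and 129 CPM (log2(FC) -0.39, edgeR adjusted p = 0.159). Both genes were without overlap between the genotypes and neither passed the test. The highest of the 8 per length, uqcrq, had a log2(FC) of -0.005.

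Complex IV contained the only called member that was higher. Of its 20 nuclear rows, 1 was called higher and 1 lower, 16 had a log2(FC) below 0, and the median was -0.23 (-0.067 with library size alone and -0.13 with the upper quartile). The gene cox7a1, which in mammals encodes the isoform of subunit 7a of heart and skeletal muscle, had 32 and 35 counts in nexn+/+ against 161 and 147 counts in nexn-/- libraries. Its level was 1.79 ± 0.0347 CPM in nexn+/+ and 6.83 ± 0.561 CPM in nexn-/- embryos (SD, n = 2). In CPM the genotypes were far apart and the replicates close (log2(FC) 1.93, standard error 0.24, edgeR adjusted p = 0.00209). The effective length that follows from the deposited values was 181 and 366 nucleotides in nexn+/+ and 420 and 374 nucleotides in nexn-/- libraries. With this length as an offset the log2(FC) was 1.30 and still called (edgeR adjusted p = 0.0316). In TPM the level of cox7a1 was 9.48 and 5.4 in nexn+/+ against 20.2 and 19.7 in nexn-/-, so the nexn+/+ replicates were less close. It remained a minor transcript, with 1.42% and 0.911% of the TPM of the cox7a rows in nexn+/+ and 3.0% and 3.17% in nexn-/-, beside 85.8% to 94.1% for cox7a2a. Heart markers were also higher, from a summed 6.18 and 3.88 CPM in nexn+/+ to 52.9 and 54.7 CPM in nexn-/- embryos, with 4 of 4 tested markers called higher, and the part of heart muscle RNA in the level of cox7a1 was not tested.

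The gene cox4i2 encodes the isoform of subunit 4 that in mammals is induced by low oxygen. It stood at 34.1 and 44.5 CPM in nexn+/+ against 22.5 and 25.8 CPM in nexn-/- embryos. Both nexn-/- libraries were below both nexn+/+ libraries, and here, unlike most members, nexn+/+ replicate 2 was the higher (log2(FC) -0.70, standard error 0.156, edgeR adjusted p = 0.0144, not called with library size alone). Of the TPM of the cox4 rows, cox4i2 held 4.86% and 7.84% in nexn+/+ and 3.67% and 4.06% in nexn-/-, and the common isoform cox4i1, at 91.7% to 95.7%, had a log2(FC) of -0.06. The rare cox4i1l had a log2(FC) of 0.42 and was not called.

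The subunit gene cox6b1 stood at 55.2 and 55.3 CPM in nexn+/+ against 36.9 and 42.5 CPM in nexn-/- (log2(FC) -0.48, standard error 0.113, edgeR adjusted p = 0.0177), just inside the fold change limit. The gene ndufa4, named after complex I but in mammals found to encode a subunit of complex IV, stood at 242 and 240 CPM in nexn+/+ against 167 and 175 CPM in nexn-/- (log2(FC) -0.49, standard error 0.11, edgeR adjusted p = 0.0149). Both had nearly equal nexn+/+ replicates, in contrast to most members. Over 10 alternatives of scaling, filter, tool, block and length, neither gene kept an adjusted p under 0.05 in all of them. The gene cox6b1 was called in 0 of the 10. With DESeq2 or with median-of-ratios scaling, ndufa4 lay past the fold change limit and was called, making 2 of the 10. Its relative ndufa4l, which held 75.5% to 81.9% of the TPM of the family, had a log2(FC) of -0.17 and overlapping genotypes. The most abundant nuclear transcript of complex IV per length was cox7c, with a mean of 1277 TPM (log2(FC) -0.23, not called), and the higher COX5B row had a log2(FC) of 0.08.

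**Figure D3:**
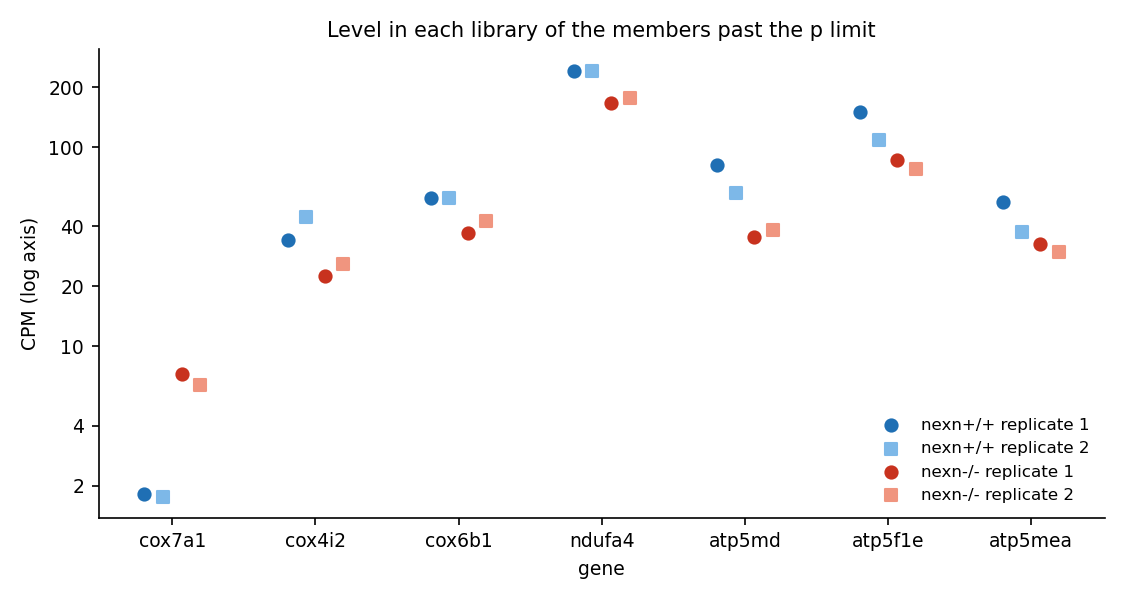
CPM of the 7 members with an adjusted p under 0.05, in each library, on a log axis (circles, replicate 1, squares, replicate 2, blue, nexn+/+, red, nexn-/-). For each gene the nexn-/- libraries lie apart from the nexn+/+ libraries, above for cox7a1 and below for the others, and the replicates of nexn+/+ lie close for cox7a1, cox6b1 and ndufa4.

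Complex V, the ATP synthase, had 3 of 17 nuclear subunits called lower and none higher, beside 13.9% lower and 16.7% higher of all tested genes. The median log2(FC) of the complex was -0.18 (-0.020 with library size alone and -0.075 with the upper quartile). The gene atp5md, which encodes a small membrane subunit that in mammals supports dimers of the enzyme, stood at 81.0 and 58.7 CPM in nexn+/+ against 35.3 and 38.3 CPM in nexn-/- embryos. All nexn+/+ values were well above all nexn-/- values (log2(FC) -0.92, standard error 0.164, edgeR adjusted p = 0.00672), and it was called in all 10 alternatives of scaling, filter, tool, block and length. The gene atp5f1e, for the epsilon subunit of the central stalk, stood at 150 and 108 CPM in nexn+/+ against 86.3 and 77.6 CPM in nexn-/- (log2(FC) -0.65, standard error 0.17, edgeR adjusted p = 0.0253, called in 9 of the 10). The gene atp5mea, for a small subunit of the membrane part, stood at 52.7 and 37.6 CPM in nexn+/+ against 32.5 and 29.7 CPM in nexn-/- (log2(FC) -0.54, standard error 0.17, edgeR adjusted p = 0.0484). It was called in 5 of the 10 alternatives, and its paralog atp5meb, at 152 to 252 CPM, overlapped between the genotypes.

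The large subunits of the catalytic head were not among them. The gene atp5f1b, for the catalytic beta subunit, stood at 1980 and 1342 CPM in nexn+/+ against 1686 and 1907 CPM in nexn-/-, and atp5fa1, for the alpha subunit, at 1561 and 1133 CPM against 1271 and 1490 CPM. In both, the nexn-/- libraries lay between the nexn+/+ libraries (log2(FC) 0.11 and 0.04). The transcript with the highest TPM of all nuclear subunits was atp5mc3b, for the proton-carrying c ring, with 1862 and 1825 TPM in nexn+/+ and 1845 and 1800 TPM in nexn-/-. Its paralog atp5mc3a had the highest log2(FC) of the nuclear subunits of the complex, with 150 and 130 CPM in nexn+/+ against 158 and 192 CPM in nexn-/- (log2(FC) 0.32, edgeR adjusted p = 0.118).

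The summed counts of the nuclear subunits overlapped between the genotypes. The 88 nuclear subunits summed to 17947 and 13273 CPM in nexn+/+ against 14105 and 15581 CPM in nexn-/- libraries, so that the nexn-/- sums lay between those of nexn+/+, and as a percentage of all counts to 1.58% and 1.36% against 1.5% and 1.62%. The same held for the summed CPM of complexes I, II, III and V, and for complex IV the sums were 3203 and 2421 CPM in nexn+/+ against 2381 and 2623 CPM in nexn-/-, with overlap. Deposited TPM accounts for length and, unlike the CPM here, does not use the TMM factors. In summed TPM, complex II stood at 412 and 356 TPM in nexn+/+ against 457 and 446 TPM in nexn-/-, without overlap. Complex III stood at 2286 and 2084 TPM in nexn+/+ against 2368 and 2390 TPM in nexn-/-, also without overlap. The sums of complexes I, IV and V overlapped. The parts of length and scaling in this difference from CPM were not separated. With 2 libraries against 2, the smallest p of a two-sided exact permutation test is 0.333, so no sum could reach significance.

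Within isoform and paralog sets, shares of the summed TPM differed without overlap in many cases, a description chosen after the values had been seen and not tested. Such rows were found in the uqcrc2, atp5mc, cox4, cox5a, cox6b, cox7a, ndufa4, ndufa9 and ndufab1 sets, and not in cox6a, cox8, atp5me, ndufs8 and sdhd. In CPM, 70.9% of all tested genes did not overlap, and shares within a set are not independent. Of the uqcrc2 pair, uqcrc2b held 51.6% and 49.3% in nexn+/+ and 58.6% and 58.6% in nexn-/-. Of the atp5mc set, atp5mc3a held 5.85% and 6.0% in nexn+/+ and 7.71% and 9.25% in nexn-/-. The muscle isoforms of mammals other than cox7a1 did not show this, since cox6a2 (0.791% to 1.52% of cox6a) and cox8b (2.15% to 2.99% of cox8) overlapped between the genotypes.

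The 4 called ATP synthase and complex IV genes that were lower included 3 with short transcripts, which led to a comparison with length that was chosen after the values had been seen. Of the 77 nuclear subunits averaging 10 CPM or more, the 20 with an effective length under 300 nucleotides had a median log2(FC) of -0.22 and 3 calls, all lower, and the 17 with 1000 nucleotides or more had a median of 0.03 and no call. Over these 77 genes the Spearman correlation of effective length with log2(FC) was 0.41, and over 10646 genes at that level it was -0.068. Over the 13 mitochondrial mRNAs it ran the other way, at -0.46. The Spearman correlation of mean CPM with log2(FC) was 0.32 over the 77 genes, -0.92 over the 13 and -0.21 over the 10646. These are descriptions over genes that share the same 4 libraries, and length and level were not separated. Of all 109 tested genes at that level with an effective length under 300 nucleotides, 25.7% were called and the median log2(FC) was -0.28, and of the 9178 with 1000 nucleotides or more, 36.4% were called and the median was -0.13. The part of fragment length or RNA quality in this was not tested. Modelling effective length in each library left the medians at -0.24 and 0.04. This offset holds only the differences between libraries in the derived length of a gene, so it cannot decide that question.

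**Figure D4:**
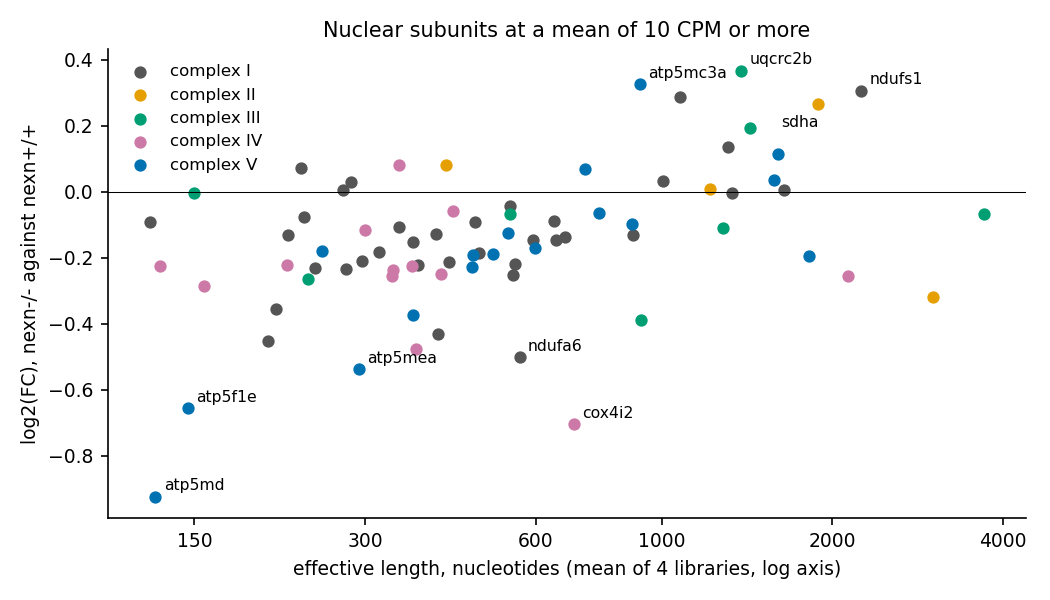
Fitted log2(FC) of the 77 nuclear subunits averaging 10 CPM or more against their effective length, the mean of the 4 libraries on a log axis, coloured by complex. Subunits under 300 nucleotides lie mostly below 0 (median -0.22), with atp5md and atp5f1e lowest among them, and those of 1000 nucleotides or more lie around 0.03.

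The mRNAs of the mitochondrial genome encode membrane subunits at the centre of complexes I, III, IV and V, and held more counts than all nuclear subunits together. They summed to 40457 and 28390 CPM in nexn+/+ against 27150 and 26008 CPM in nexn-/- embryos, with both nexn-/- libraries below but nexn+/+ replicate 2 close to them (exact permutation p = 0.333, the smallest possible). For each count of a nuclear subunit there were 2.25 and 2.14 mitochondrial counts in nexn+/+ against 1.92 and 1.67 in nexn-/-, without overlap and with the same p. None of the 13 was called by edgeR, and 3 had an unadjusted p under 0.05, beside 9432 of 20312 tested genes with such a p. DESeq2 called 1 of the 13 higher and 2 lower, beside 2930 higher and 2730 lower of all tested genes. With limma-voom 1 of the 13 was higher and 1 lower, beside 3576 higher and 2845 lower of all tested genes. All 13 were higher in nexn+/+ replicate 1 than in replicate 2. In CPM the genotypes did not overlap for 8 of the 13 (61.5%), with 3 above and 5 below in both nexn-/- libraries. This was no more than the 70.9% of all tested genes.

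The cytochrome c oxidase mRNAs had lower values in both nexn-/- libraries, with a median log2(FC) of -0.55. The mRNA mt-co2 stood at 6799 and 4628 CPM in nexn+/+ against 3608 and 3596 CPM in nexn-/- (log2(FC) -0.67, standard error 0.223, edgeR adjusted p = 0.0573). The mRNA mt-co3 stood at 6027 and 4192 CPM in nexn+/+ against 3502 and 3502 CPM in nexn-/- (log2(FC) -0.55, standard error 0.216, edgeR adjusted p = 0.0922). The most abundant of all, mt-co1, which encodes the catalytic subunit, stood at 12090 and 9036 CPM against 8563 and 8247 CPM (log2(FC) -0.33). In all of these mRNAs the genotypes did not overlap, but none passed the test. The same side and order were seen for mt-cyb of complex III (log2(FC) -0.44) and mt-atp6 of complex V (log2(FC) -0.37).

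The complex I mRNAs did not follow this, with a median log2(FC) of 0.16 over the 7 mt-nd genes. Of these, mt-nd1, mt-nd2, mt-nd3, mt-nd4 and mt-nd5, with log2(FC) values between -0.32 and 0.26, overlapped between the genotypes. The short mt-nd4l stood at 56.3 and 26.8 CPM in nexn+/+ against 86.7 and 71.5 CPM in nexn-/- (log2(FC) 0.93, standard error 0.313, edgeR adjusted p = 0.0581), and was called in 7 of 9 alternatives. The ATP synthase mRNA mt-atp8 stood at 19.3 and 8.82 CPM against 19.97 and 29.5 CPM (log2(FC) 0.82, edgeR adjusted p = 0.116), and mt-nd6 at 18.9 and 10.18 CPM against 19.9 and 19.99 CPM (log2(FC) 0.46). For all of these low mRNAs both nexn-/- libraries were above, by a narrow margin for mt-atp8 and mt-nd6. In vertebrate mitochondrial genomes mt-nd4l overlaps mt-nd4 and mt-atp8 overlaps mt-atp6 on shared transcripts, so their reads may have been split between them, and the effective length of mt-atp8 was only 2.44 to 4.07 nucleotides. The mRNA mt-nd6 lies on the other strand, and the use of strand in counting is not given in the sources used here.

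As percentages of the 13 mitochondrial mRNAs, which do not depend on the scaling between libraries, 10 of them (76.9%) did not overlap between the genotypes. Of all tested genes scaled to the same sum, 59.9% did not overlap, with 49.2% above and 10.7% below. All 7 mt-nd mRNAs and mt-atp8 were above in both nexn-/- libraries (mt-nd4 only narrowly), mt-co2 and mt-co3 were below, and mt-cyb, mt-co1 and mt-atp6 overlapped. The mRNA mt-co2 made up 16.8% and 16.3% in nexn+/+ and 13.3% and 13.8% in nexn-/-. The mRNA mt-nd5 made up 2.60% and 2.57% in nexn+/+ and 3.98% and 3.49% in nexn-/-, and mt-nd1 5.26% and 4.68% against 6.17% and 6.32%. Shares of a sum are not independent, since a smaller share of mt-co2 and mt-co3 raises the others. With the libraries scaled to the sum of the 13, edgeR called mt-nd4l (log2(FC) 1.35, adjusted p = 0.000739) and mt-atp8 (log2(FC) 1.24, adjusted p = 0.00296) higher and none lower, and 23.1% of all tested genes.

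**Figure D5:**
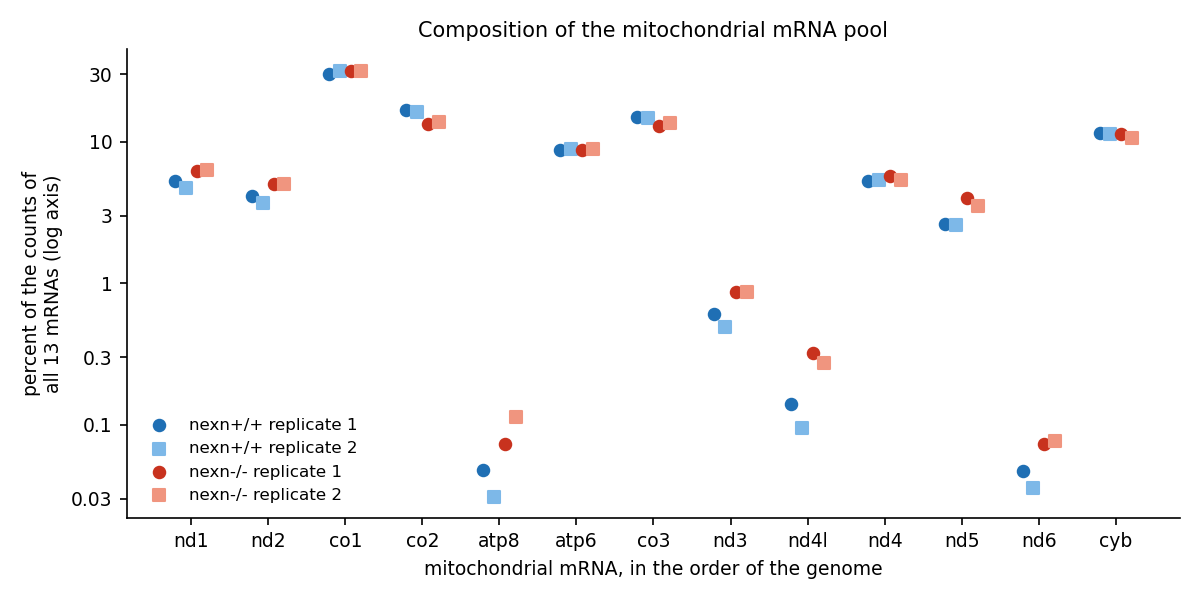
Percentage of the counts of all 13 mitochondrial mRNAs that each takes, in each library, on a log axis in the order of the mitochondrial genome (circles, replicate 1, squares, replicate 2, blue, nexn+/+, red, nexn-/-). The nd mRNAs and atp8 lie higher in both nexn-/- libraries, co2 takes 16.8% and 16.3% in nexn+/+ and 13.3% and 13.8% in nexn-/-, and co1, atp6 and cyb overlap.

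Most other lists of mitochondrial genes also held few called genes, beside 30.6% of all tested genes. Of 74 tested genes of the mitochondrial ribosome, only mrpl33 was called (lower, log2(FC) -0.70), and the median was -0.01. Of 22 genes of the tricarboxylic acid cycle and pyruvate dehydrogenase, 1 was called higher and 1 lower. The one higher was suclg2, for a subunit of succinyl-CoA ligase (log2(FC) 0.64), and the one lower was the pyruvate dehydrogenase gene pdha1b (log2(FC) -1.84), which lies under 10 CPM and was named after its values were seen. Of 38 assembly factors beyond those above, acad9, which acts on complex I, was called higher (log2(FC) 0.59) and pet100, which acts on complex IV, lower (log2(FC) -0.67). Of 29 genes of mitochondrial import and chaperones, only the prohibitin gene phb2b was called (higher, log2(FC) 0.92). As for the members, nexn+/+ replicate 1 was mostly above replicate 2 in these lists. This held for 68 of the 74 ribosome genes, 21 of the 22 of the tricarboxylic acid cycle and pyruvate dehydrogenase, 31 of the 38 assembly factors and 22 of the 29 of import. The median log2 ratio of these replicates was 0.21 for the ribosome genes, and 0.23 for the 33 glycolysis genes described below.

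Of 23 genes for electron carriers and the exchange of adenine nucleotides and phosphate, 1 was called higher and 2 lower. The gene slc25a3a, for the carrier that brings phosphate to the ATP synthase, stood at 88.6 and 101 CPM in nexn+/+ against 28.5 and 35.4 CPM in nexn-/- embryos. This was a wide gap with close replicates (log2(FC) -1.57, standard error 0.143, edgeR adjusted p = 0.00128). The gene vdac1, for a channel of the outer membrane, stood at 403 and 373 CPM against 234 and 253 CPM (log2(FC) -0.67, edgeR adjusted p = 0.00725). The gene called higher was coq8b, which acts in ubiquinone synthesis (log2(FC) 0.71). Of 14 genes of mitochondrial DNA transcription and maintenance 2 were called higher and none lower (14.3%). Of 15 regulators of mitochondrial biogenesis 3 were called higher and 1 lower (26.7%). These included nrf1, a transcription factor of nuclear respiratory genes, which was lower at 70.6 and 59.6 CPM in nexn+/+ against 43.2 and 42.0 CPM in nexn-/- (log2(FC) -0.61, edgeR adjusted p = 0.00907), and the coactivator gene pprc1, which was higher (log2(FC) 0.57).

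Markers of several tissues differed between the same libraries. All 11 markers of cones and rods and all 5 of neurons were called lower (summed 10242 and 12480 CPM in nexn+/+ against 4322 and 4547 CPM in nexn-/- for the former, 2405 and 2308 CPM against 1166 and 1134 CPM for the latter). All 4 liver markers (105 and 53.8 CPM against 1015 and 1053 CPM) and all 5 red cell markers (552 and 407 CPM against 1630 and 1687 CPM) were called higher, 5 of 6 markers of skin ionocytes were called higher and 1 lower, and none of 3 markers of proliferating cells was called. The part of tissue composition in the levels of the members was not tested.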

How the data were processed

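RNA of whole embryos was sequenced as paired reads by a service provider, with 2 libraries per genotype. The processing notes name STAR, RSEM and the build GRCz11, and neither versions nor an annotation release are given in the sources used here. The authors deposited, for each gene, expected counts without normalization, together with TPM and FPKM values, which are scaled by depth and effective length. The 4 tables share 1 column heading, so each was assigned by its deposition record. Authors' fold changes were not used.

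Rounded counts were tested with edgeR 4.0.16 in R 4.3.3 (filterByExpr, TMM, quasi-likelihood test, Benjamini-Hochberg adjustment over 20312 genes, genotype as the only term). CPM used TMM-adjusted library sizes. The fit was also run on simulated data with the same spread in both genotypes. That cannot show how it behaves with the unequal spread of these libraries. Effective length was derived from deposited counts divided by FPKM. At these depths 1 CPM stands for about 20 counts. A gene was called at an adjusted p under 0.05 and a log2(FC) beyond 0.5.

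Members and lists were chosen with earlier results of these data known. Named genes were the mitochondrial mRNAs, the called members, the nuclear subunit of each complex with the highest mean TPM and those with the highest and lowest log2(FC) (mean of at least 10 CPM), isoforms of called subunits, nexn, and called genes of the other lists (at least 10 CPM, at most 4 per direction). Other genes were named after their values were seen.

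Alternatives were DESeq2 1.42.0, limma-voom (limma 3.58.1), other scalings, filters and fold change limits, the replicate number as a block, an effective length offset and each library left out. Promoter sequences and motifs were not analysed here.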

Additional observations from a re-analysis of the deposited data

How the results depend on the processing

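Library size alone gave 1878 genes lower in all, 3 nuclear subunits higher and 1 lower, and 2 mitochondrial mRNAs higher. A log2(FC) beyond 1 gave 2218 genes higher and 922 lower, with no nuclear subunit lower (0). For nuclear subunits called higher, the upper quartile and limma-voom gave 2. Scaling to the nuclear subunits, chosen after seeing the data, left 1 nuclear subunit higher and 1 lower, beside 2949 higher and 1418 lower of all tested genes (21.5%). For mitochondrial mRNAs called higher, the upper quartile, no filter, DESeq2 and limma-voom gave 1, the effective length offset gave 2, and scaling to the 13 mRNAs, also chosen after seeing the data, gave 2. For those called lower, no filter, limma-voom and the effective length offset gave 1 and DESeq2 gave 2. Of all genes tested, no filter gave 3405 higher and 2806 lower, the effective length offset 3266 and 2669, and scaling to the 13 mRNAs 4235 and 465. Deposited TPM takes effective length into account and leaves out the TMM factors, and the parts of these were not separated. In summed TPM the log2 ratio was 0.31 for the mt-nd mRNAs, 0.42 for mt-atp6 and mt-atp8, and -0.038 for all 13. The latter sums both include mt-atp8, whose effective length is a few nucleotides. The cause of the other changes was not tested.

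Replicate numbers did not pair the samples (correlation of deviations of -0.0191 between the genotypes). With the replicate number as a block, 3417 genes were called higher and 2741 lower, 1 nuclear subunit higher and 4 lower, and 1 mitochondrial mRNA higher.

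With each library left out in turn, all genes called ranged from 4 to 4928 higher and from 0 to 3632 lower, nuclear subunits from 0 to 6 higher and from 0 to 17 lower, and mitochondrial mRNAs from 0 to 4 higher and from 0 to 6 lower. Median log2(FC) ranged from -0.32 to 0.11 for complex I, from -0.22 to 0.27 for complex II, from -0.24 to 0.16 for complex III, from -0.44 to 0.028 for complex IV, from -0.36 to 0.036 for complex V, from -0.79 to -0.26 for the mt-co mRNAs and from -0.37 to 0.32 for all mitochondrial mRNAs. The medians of the nuclear complexes were above 0 without nexn+/+ replicate 1. Levels near 1 CPM, such as those of cox7a1 in nexn+/+, rest on few counts and are less precise.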

Other observations

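Glycolysis and fatty acid oxidation break down sugars and fatty acids and supply electrons to the respiratory chain. Of 33 tested glycolysis genes, 2 were called higher and 16 lower (54.5%, beside 30.6% of all tested genes), with a median log2(FC) of -0.48. Among those lower were aldocb and aldoca, which encode aldolase C, the aldolase of brain and retina, and the enolase genes eno2, known as the neuronal form, and eno1b. The level of aldocb was 531 and 575 CPM in nexn+/+ against 231 and 240 CPM in nexn-/- embryos (log2(FC) -1.23, standard error 0.123, edgeR adjusted p = 0.00134). The values of eno2 were 210 and 180 CPM in nexn+/+ against 90.7 and 85.6 CPM in nexn-/- (log2(FC) -1.14, edgeR adjusted p = 0.00155). For eno1b the log2(FC) was -1.20 and for aldoca -1.70. Among those higher was pklr, for the pyruvate kinase of liver and red cells (log2(FC) 0.99, edgeR adjusted p = 0.0267). The markers of cones, rods, neurons and liver given above moved in the same directions as these forms, and their part was not tested.

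The 21 tested genes of fatty acid oxidation had a median log2(FC) of 0.34, beside 0.02 over all tested genes. Beside 16.7% higher and 13.9% lower of all tested genes, 3 of these 21 (14.3%) were called higher and none lower. These were decr1, for an enzyme that handles unsaturated fatty acids (16.3 and 14.1 CPM in nexn+/+, 25.5 and 27.8 CPM in nexn-/-, log2(FC) 0.81, edgeR adjusted p = 0.00507), etfdh, which passes electrons of fatty acid oxidation to ubiquinone (43.5 and 38.0 CPM in nexn+/+, 63.3 and 67.0 CPM in nexn-/-, log2(FC) 0.68, edgeR adjusted p = 0.00545), and cpt1ab, for the enzyme of fatty acid entry (log2(FC) 0.54, edgeR adjusted p = 0.0426). All 21 genes were higher in nexn+/+ replicate 1 than in replicate 2.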
